A study of Saccharomyces cerevisiae with 14 samples.

Results

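The difference of ethanol responses between genotypes is, for each gene, the change of messenger RNA after the move to ethanol in cells without FPT1, minus the same change in wild-type cells. It was computed on log2(FPKM + 1), where FPKM is the deposited level of a gene scaled for its length and for the mapped total of the library, and it drew on all 14 of the 14 samples: 6 for the wild-type response and 8 for the deletion response. A value below 0 means that the deletion cells responded less upward, or more downward, than wild type; a value above 0 means the reverse. The wild type was BY4741, a MATa laboratory strain of Saccharomyces cerevisiae with the alleles his3Δ1, leu2Δ0, met15Δ0 and ura3Δ0. The deletion cells carried fpt1::KanMX; libraries 1 to 3 in each medium bore the strain name NKI5633, and library 4 the name NKI5620. Each genotype was profiled in the rich glucose medium YEPD at mid-log phase and after 2 h in ethanol at 30 °C, with 3 wild-type and 4 deletion libraries per medium.

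In glucose, budding yeast ferments and devotes much of its transcription to ribosomes. When glucose is gone and ethanol remains, Snf1 kinase, the Hap complex and the stress factors Msn2 and Msn4 are known to switch on respiration, gluconeogenesis, reserve carbohydrates and stress protection, while falling protein kinase A and TORC1 signalling shuts down ribosome synthesis. The same signals act on Maf1, the repressor of RNA polymerase III, which transcribes tRNA genes, and Fpt1 is a factor known to associate with the genes of this polymerase. The comparison asks whether the switch itself differs in cells that lack Fpt1.

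The libraries went with their labels. FPT1 lay between 51.9 and 158 FPKM in wild-type libraries and did not exceed 0.412 in the 8 deletion libraries. LEU2, URA3 and MET17 (met15Δ0), deleted in the parent strain, had a value of 0 in each of the 14 libraries. HIS3, only partly deleted in that strain (his3Δ1), read 51.0 to 104 FPKM. The MATa genes MFA1 and STE2 spanned 58.3 to 188 and 336 to 972 FPKM, against 1.85 to 12.4 for STE3, the receptor of the opposite mating type, and 21.0 to 27.9 for SAG1, its agglutinin. The library totals lay between 1649739 and 2027946 FPKM, the median gene stood at 47.8 to 63.5 FPKM, and 326 to 530 genes were at 0. Read depth is not given in the sources used here.

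Both genotypes made the same switch, with an estimated size that was on average smaller in the deletion cells. Of 6267 genes tested, limma called 75.3% in wild type (3163 rose and 1555 fell) and 74.5% in the deletion (2939 rose and 1733 fell). Across these genes the least-squares slope through the origin of the deletion response on the wild-type response was 0.804. It was 0.805 over the 3958 genes with a wild-type response above 0 and 0.802 over the 2304 below 0. On the values as deposited, the estimates were thus smaller in both directions, in about the same proportion. That equality depends on scaling. Median scaling moved the median difference of ribosome biogenesis genes, which fell, from 0.47 to 0.58. It moved that of respiratory chain and ATP synthase genes, which rose, from -0.40 to -0.29. The slope over all genes was 0.813 after median scaling. The root mean square response was 1.31 in wild type and 1.10 in the deletion on the log2 scale, a ratio of 0.837. Measurement error in the wild-type response, which lowers such a slope, made up 3.05% of the variance of that response, and the slope of wild type on the deletion, inverted, was 0.871. The slope is a description over genes that are not independent replicates, and it stayed between 0.764 and 0.834 when any 1 library was left out.

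**Figure D1:**
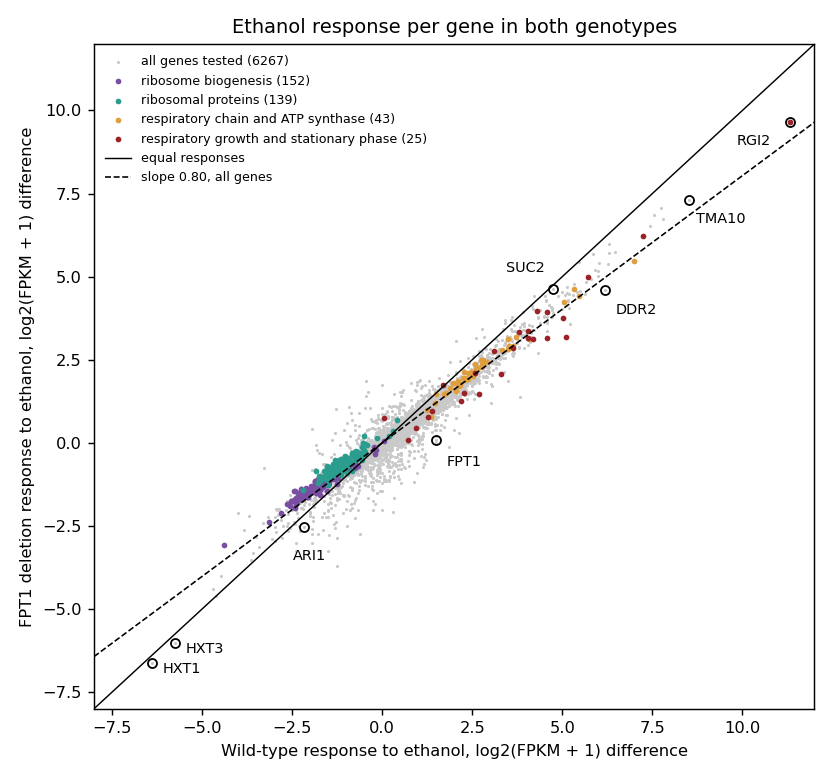
Ethanol response of each of 6267 genes in wild type (horizontal axis) and in the FPT1 deletion (vertical axis), as differences of mean log2(FPKM + 1); the solid line marks equal responses, the dashed line the fitted slope of 0.80, and colours mark 4 gene lists. Most ribosome genes at the lower left lie above the solid line and most respiratory genes at the upper right below it, whereas HXT1, HXT3 and SUC2 lie close to it.

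The libraries were not uniform within a genotype. When each ethanol library was set against the mean glucose library of its own genotype, its slope on the mean wild-type response was 1.03, 1.04 and 0.926 in wild-type libraries 1 to 3, which average 1 by construction. In deletion libraries 1 to 4 it was 0.904, 0.751, 0.846 and 0.714. All 4 deletion libraries lay below all 3 wild-type libraries, but the margin between deletion library 1 and wild-type library 3 was small. The wild-type libraries also form part of the mean response they are set against, and the deletion libraries do not, so the separation is partly built in.

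The first principal component, with 82.0% of the variance, parted the media. Wild-type libraries scored -48.3, -47.9 and -50.7 in glucose and 58.1, 56.9 and 47.0 in ethanol. Deletion libraries scored -44.7, -48.8, -43.3 and -42.7 in glucose and 51.8, 35.3, 45.6 and 31.8 in ethanol. The genotypes overlapped in both media: deletion glucose library 2 lay among the wild-type libraries and deletion ethanol library 1 lay above wild-type ethanol library 3. The response on this component was 103 in wild type and 86.0 in the deletion, a difference of -16.9 (exact two-sided permutation of genotype within medium, p = 0.0278, smallest possible 0.000816). This call was lost without wild-type ethanol library 1 (-15.3, exact permutation p = 0.0705) or library 2 (-15.2, p = 0.0971), without both NKI5620 libraries (-13.0, p = 0.07), at pseudocount 0.1 (p = 0.0857) and under median scaling (p = 0.0645) or quantile normalization (p = 0.0963). The permutation is exact only if genotype had no effect in either medium, so its p does not isolate a difference of responses. In RNA from a whole culture, fewer responding cells and a smaller response per cell cannot be told apart.

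**Figure D2:**
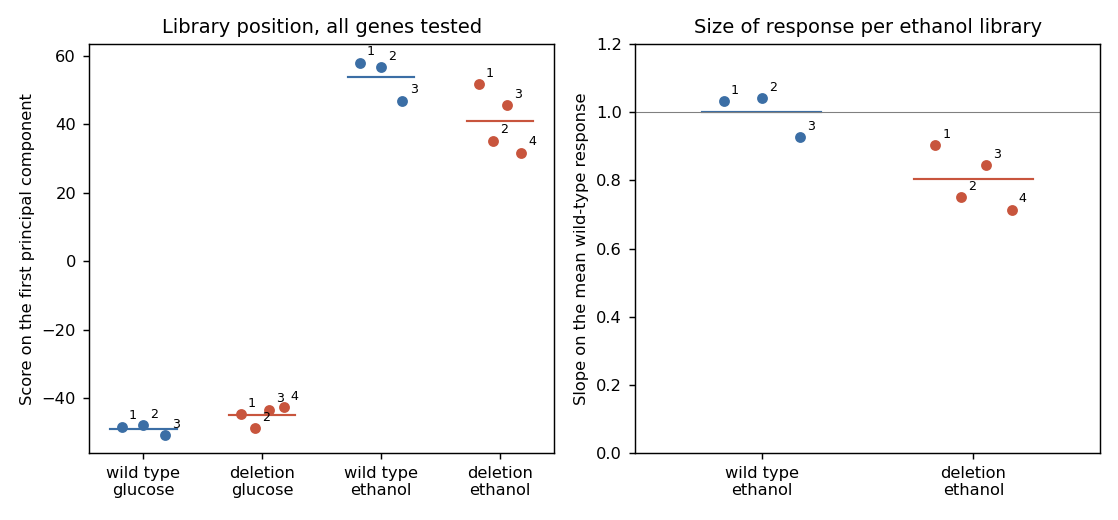
Left, score of each library on the first principal component of log2(FPKM + 1), by genotype and medium; right, slope of each ethanol library's response on the mean wild-type response, with a grey line at 1. Points are libraries; deletion ethanol libraries 2 and 4, at 0.751 and 0.714, have the smallest responses.

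No single gene passed the test of the difference. Limma called 0 of 6267 genes (0%) at an adjusted p below 0.05, and the lowest adjusted p was 0.0789. With weights estimated for each library it called 1036 genes, 709 lower and 327 higher. An unadjusted p below 0.05 was found for 1603 genes, 1207 with a difference below 0 (19.3%) and 396 above 0 (6.32%). If no gene differed, 313.35 would be expected in all. Genes are not independent, so such a count can vary widely around its expectation. The median difference was -0.12 on the log2 scale, and 4270 genes (68.1%) lay below 0. That preponderance depended on scaling. After median scaling the median was -0.01 and the genes at unadjusted p below 0.05 split into 553 lower and 757 higher; after quantile normalization they split into 494 and 651.

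The design set limits on how large a difference could have gone unseen. The median SE of the difference was 0.139, and the median 95% confidence interval reached 0.299 to either side. For 5043 genes (80.5%) the whole interval lay within 1 log2 unit of 0, and for 2917 within 0.5. An estimate of at least 1 log2 unit in size was found for 169 genes, 126 lower and 43 higher, of which 54 had a mean of at least 10 FPKM. The count of called genes rested on single libraries. Without wild-type ethanol library 3 limma called 654 genes (417 lower, 237 higher), and without deletion ethanol library 1 it called 844 (586 lower, 258 higher), while leaving out any other library gave at most 1, namely TMA10 without wild-type glucose library 2 and FPT1 without deletion ethanol library 4. Of the called genes 402 were shared, 61.5% of the first set and 47.6% of the second, 256 of them lower and 146 higher. Those libraries are the wild-type ethanol library with the smallest response and the deletion ethanol library with the largest.

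**Figure D3:**
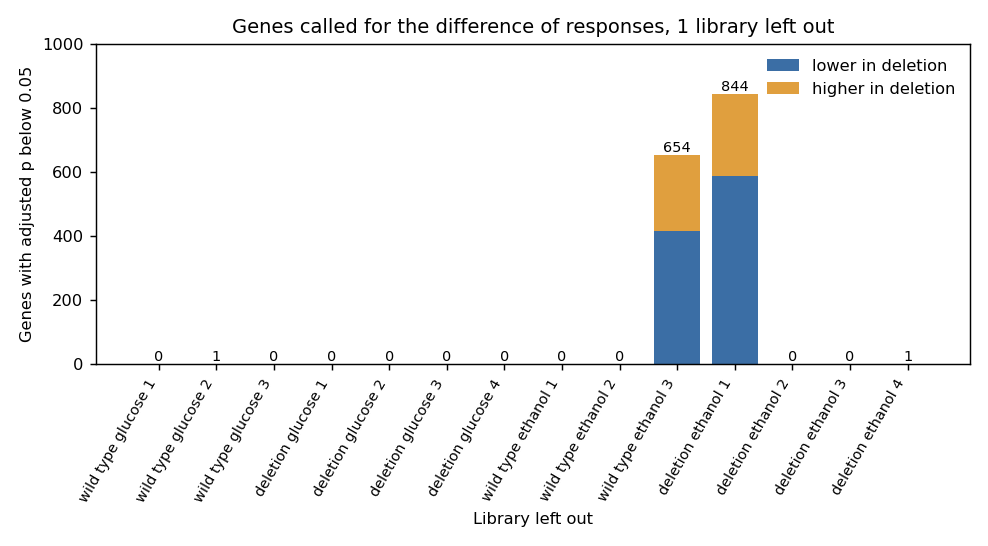
Number of genes with an adjusted p below 0.05 for the difference of responses (limma) after leaving out the library named under each bar, split by direction. Bars reach 654 and 844 without wild-type ethanol library 3 and deletion ethanol library 1, and are 0 or 1 for each of the other 12 libraries.

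FPT1 itself had the lowest p. It stood at 52.4, 51.9 and 51.9 FPKM in wild-type glucose libraries and at 136, 150 and 158 in wild-type ethanol libraries, so it rose by 1.49 ± 0.16 (SE). Its difference of -1.39 ± 0.21 (adjusted p = 0.0789) is mostly that rise with its sign turned. The deleted gene cannot respond, and its residual values gave a change of 0.10 ± 0.14.

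The remaining 9 genes that came closest on the lower side were TMA10, SRL3, DDR2, COA4, RGI1, ATG8, MAG1, HRT3 and MIX23. They were taken by lowest p among genes with a symbol and a mean of at least 10 FPKM, and none passed. TMA10 (YLR327C, chromosome XII, 783127 to 783387, minus strand) encodes a ribosome-associated protein of stressed cells. In glucose it read 87.4, 126 and 92.7 FPKM in wild type and 158, 169, 206 and 186 in the deletion. After the move it stood at 40783, 38257 and 32750 in wild type and 33105, 27376, 28232 and 25262 in the deletion. The deletion libraries were thus all above wild type in glucose, and in ethanol all but library 1 were below. TMA10 rose by 8.51 in wild type and 7.30 in the deletion, a difference of -1.21 ± 0.19 (95% interval -1.63 to -0.79, adjusted p = 0.0881).

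DDR2 (YOL052C-A, chromosome XV, 231570 to 231755, minus strand), a multistress response gene, showed the largest difference of these 9 genes. It went from 2.98, 4.50 and 3.80 FPKM to 314, 462 and 271 in wild type, and from 7.22, 7.05, 5.80 and 8.51 to 279, 170, 178 and 166 in the deletion. The difference was -1.59 ± 0.29 (95% interval -2.21 to -0.96, adjusted p = 0.126), with groups apart in glucose and overlapping in ethanol through deletion library 1. RGI1 (YER067W, chromosome V, 292066 to 292551, plus strand), induced in respiratory growth, started at 150, 172 and 158 FPKM in wild type and at 295, 259, 328 and 302 in the deletion. It reached 4638, 5266 and 5840 in wild type and 5986, 3357, 4061 and 3227 in the deletion. Its difference was -1.25 ± 0.24 (adjusted p = 0.126). In ethanol deletion library 1 lay above all wild-type libraries for RGI1, and the other deletion libraries lay below them.

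The upstream sequences of DDR2 and RGI1 are shown because both hold several copies of the stress response element STRE, bound by Msn2 and Msn4. The windows are the 200 bases that end 100 bases before the start codon, 5′ to 3′ on the gene's strand, read from the R64 genome of strain S288C, with AGGGG or its complement CCCCT in capitals.
DDR2, chrXV:231856-232055, minus strand: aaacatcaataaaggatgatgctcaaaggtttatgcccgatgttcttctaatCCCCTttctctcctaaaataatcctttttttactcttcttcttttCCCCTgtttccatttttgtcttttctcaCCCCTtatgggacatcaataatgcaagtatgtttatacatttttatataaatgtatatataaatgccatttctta
RGI1, chrV:291766-291965, plus strand: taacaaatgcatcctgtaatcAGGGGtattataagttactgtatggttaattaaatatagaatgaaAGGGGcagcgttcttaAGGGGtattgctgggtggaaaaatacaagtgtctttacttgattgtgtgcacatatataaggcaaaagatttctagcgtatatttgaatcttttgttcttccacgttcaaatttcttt
Each window held 3 matches. The motif was searched on both strands and stood in 16.5% of 5733 windows of this kind, in 29 of 49 stress genes (59.2%) and in 12 of 25 genes of respiratory growth and stationary phase (48.0%). The other 7 genes named on the lower side had no match in this window.

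ATG8, MAG1, HRT3 and MIX23 were the lower genes whose groups did not overlap in ethanol. ATG8 (YBL078C), the ubiquitin-like protein of autophagosomes, read 69.2, 55.8 and 69.0 FPKM in wild type and 84.1, 92.1, 80.9 and 93.4 in the deletion in glucose. Ethanol libraries held 351, 373 and 284 in wild type and 281, 190, 236 and 179 in the deletion, and the difference was -1.05 ± 0.20 (adjusted p = 0.126). MAG1 (YER142C), a DNA glycosylase that removes alkylated bases, was alike in glucose, at 38.2, 40.7 and 42.7 against 41.8, 41.7, 39.8 and 44.8 FPKM. In ethanol it read 170, 157 and 145 against 120, 89.8, 107 and 102, a difference of -0.64 ± 0.12 (adjusted p = 0.126). MAG1 was the one gene of the 9 whose glucose groups overlapped. HRT3, an F-box protein, rose by 0.51 in wild type, and its change of 0.05 in the deletion did not pass. MIX23, of the mitochondrial intermembrane space, rose by 1.23 and 0.82.

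SRL3 (YKR091W), a relative of the cell cycle inhibitor Whi5, read 30.9, 30.2 and 30.8 FPKM in wild type and 43.8, 46.5, 47.6 and 49.6 in the deletion in glucose. In ethanol the groups met, at 84.2, 73.6 and 97.8 against 86.8, 76.1, 71.0 and 78.8. Its difference of -0.71 ± 0.13 (adjusted p = 0.126) therefore came from the glucose side, where the genotypes were 0.60 apart, against -0.12 in ethanol. COA4, an assembly factor of cytochrome c oxidase, behaved alike: 0.48 apart in glucose and -0.18 in ethanol, a difference of -0.66 (adjusted p = 0.126).

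**Figure D4:**
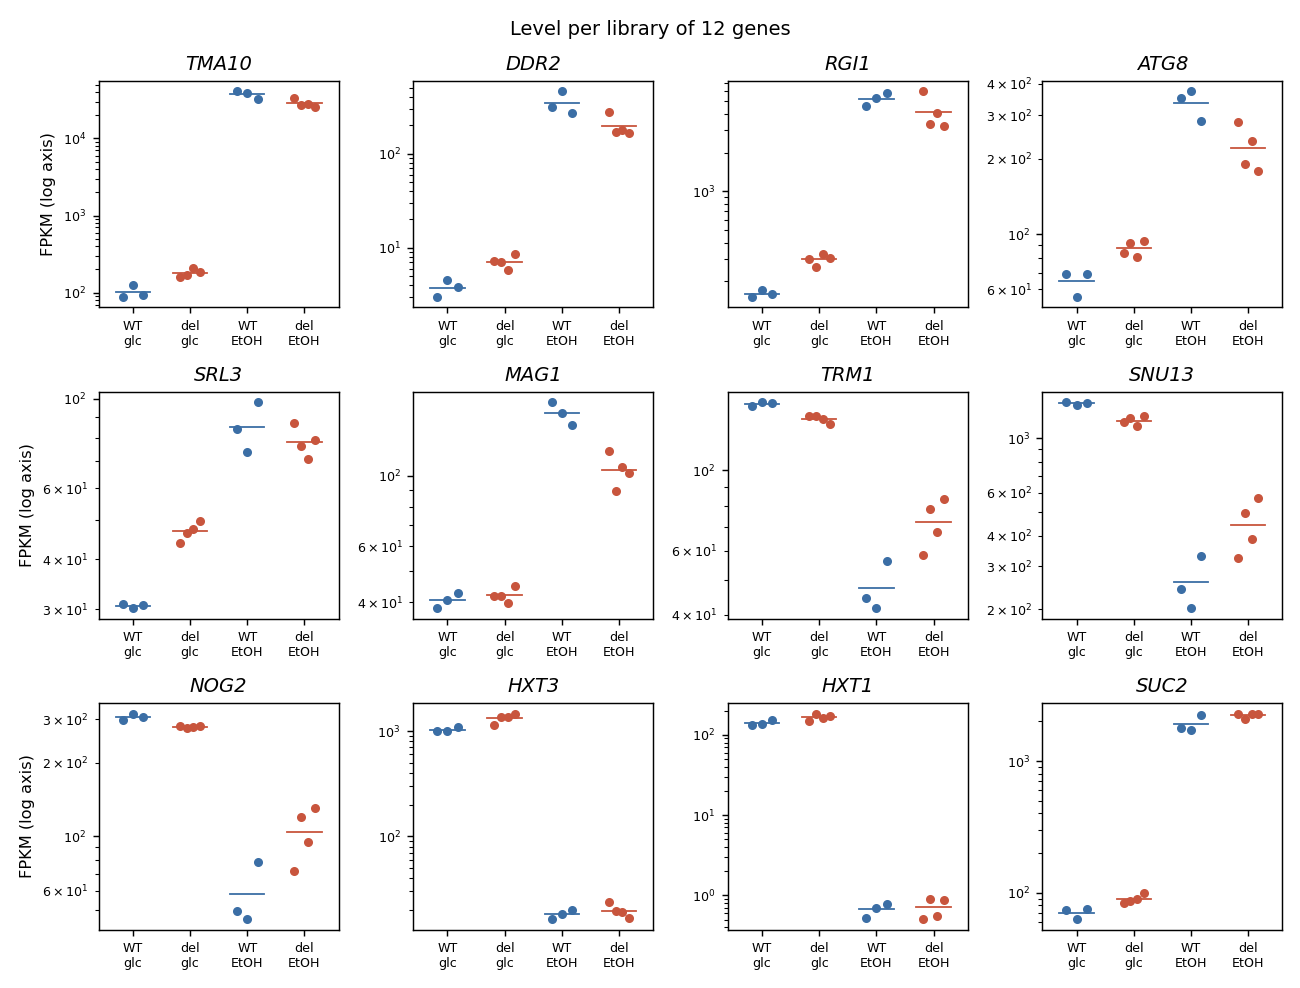
FPKM per library (points, log axis) and group mean (lines) for 12 genes in wild-type (WT) and deletion (del) cells in glucose (glc) and ethanol (EtOH). For TMA10, DDR2, RGI1, ATG8 and SRL3 the deletion lies above wild type in glucose; for HXT1 the genotypes overlap in both media.

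The 10 genes that came closest on the higher side fell in both genotypes, by a smaller estimate in the deletion, and had mixed functions. TRM1 (YDR120C, chromosome IV, 691549 to 693261, minus strand), a tRNA guanosine methyltransferase, read 150, 154 and 153 FPKM in wild type and 141, 141, 138 and 134 in the deletion in glucose. In ethanol TRM1 read 44.4, 41.7 and 56.4 in wild type and 58.5, 78.1, 67.7 and 83.3 in the deletion. The groups were apart in both media and in opposite order, and the difference was 0.73 ± 0.16 (95% interval 0.38 to 1.07, adjusted p = 0.126). NCL1, which methylates cytosines in tRNA, differed by 0.54 (adjusted p = 0.134).

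SNU13 (YEL026W, chromosome V, 101943 to 102323, plus strand), a protein of box C/D snoRNPs and the spliceosome, read 1401, 1373 and 1394 FPKM in wild type and 1164, 1206, 1118 and 1237 in the deletion in glucose. In ethanol it read 242, 202 and 331 in wild type and 324, 495, 387 and 570 in the deletion, so that deletion library 1 fell below wild-type library 3. The difference was 1.01 ± 0.25 (95% interval 0.48 to 1.55, adjusted p = 0.134). NOG2 (YNR053C, chromosome XIV, 721120 to 723112, minus strand), a GTPase of the large ribosomal subunit's assembly, read 299, 317 and 308 FPKM in wild type and 282, 276, 280 and 283 in the deletion in glucose. Ethanol libraries gave 49.7, 45.8 and 78.9 against 71.9, 119, 94.7 and 130, a difference of 0.97 ± 0.27 (adjusted p = 0.134). TOD6 (YBL054W, chromosome II, 117589 to 119166, plus strand), a repressor of ribosome biogenesis genes that binds the PAC element, went from 97.0, 92.9 and 99.3 FPKM to 7.58, 8.84 and 13.9 in wild type. In the deletion it went from 88.5, 97.9, 90.6 and 90.8 to 13.9, 20.8, 17.5 and 24.1, a difference of 0.94 ± 0.25 (adjusted p = 0.134). Its difference had the same sign as that of 149 of 152 ribosome biogenesis genes.

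The upstream windows of these 3 genes are shown for the PAC element GATGAG (complement CTCATC) and the RRPE element AAAATTT (complement AAATTTT), which mark ribosome biogenesis genes in this yeast. Both are in capitals, on either strand, and a run of AAAATTTT counts as an RRPE match on each strand.
SNU13, chrV:101643-101842, plus strand: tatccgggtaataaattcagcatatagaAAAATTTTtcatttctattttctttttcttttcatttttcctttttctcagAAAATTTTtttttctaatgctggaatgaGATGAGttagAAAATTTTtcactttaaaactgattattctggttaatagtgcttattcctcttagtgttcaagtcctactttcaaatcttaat
NOG2, chrXIV:723213-723412, minus strand: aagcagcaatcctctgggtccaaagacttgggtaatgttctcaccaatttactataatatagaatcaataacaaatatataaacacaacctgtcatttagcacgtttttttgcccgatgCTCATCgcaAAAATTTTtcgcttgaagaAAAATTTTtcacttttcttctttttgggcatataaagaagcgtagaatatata
TOD6, chrII:117289-117488, plus strand: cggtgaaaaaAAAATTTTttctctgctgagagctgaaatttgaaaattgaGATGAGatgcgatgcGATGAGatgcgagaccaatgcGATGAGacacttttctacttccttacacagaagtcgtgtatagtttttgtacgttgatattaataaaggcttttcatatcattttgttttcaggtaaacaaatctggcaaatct
SNU13 held 1 PAC and 6 RRPE matches, NOG2 1 and 4, and TOD6 3 and 2. PAC stood in 13.3% of the 5733 windows and in 92 of 152 ribosome biogenesis genes (60.5%), and RRPE in 19.4% and in 125 of 152 (82.2%). Of the 10 genes named on the higher side, PAC was found in 4 and RRPE in 6. These matches describe the windows and were not tested against the responses.

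The other genes named on this side were NUG1, a GTPase of ribosome assembly (0.59), JJJ3, of diphthamide synthesis (0.56), FSF1, a mitochondrial membrane protein (0.47), PRS4, a phosphoribosyl pyrophosphate synthetase (0.34), and the acid phosphatase PHO3 (0.74), each with an adjusted p of 0.134. Libraries did not overlap in glucose for 8 of the 9 lower genes, all 8 higher in the deletion, and for 6 of the 10 higher genes, all 6 lower in the deletion. Over all genes 15.6% did not overlap in glucose with the deletion higher and 2.12% with the deletion lower. In ethanol the groups were apart for 4 of the 9 lower genes and 5 of the 10 higher genes, against 4.12% of all genes with the deletion lower and 3.24% with it higher. The genes were chosen by the same libraries, so these counts describe them and support nothing.

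The same estimates were then read over 24 gene lists. Their members were chosen with earlier results of these data known, and no member passed the test over all genes. Counts at an unadjusted p below 0.05 stand against the background of 19.3% lower and 6.32% higher. Counts below 0 stand against 68.1% of all genes, or 51.7% after median scaling, under which members with small estimates below 0 turned sign. Medians are log2 differences, against -0.12 for all genes. Median scaling shifted the median of all genes to -0.01 and those of the lists by about the same amount, and quantile normalization shifted the lists unequally.

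Genes that make ribosomes fell in both genotypes, by a smaller estimate in the deletion. Of 152 ribosome biogenesis genes 149 fell in wild type and 150 in the deletion. They had a median response of -1.83 in wild type and -1.34 in the deletion. Their median difference was 0.47, with 149 of 152 above 0. At an unadjusted p below 0.05, 99 lay on the higher side (65.1%, against 6.32% of all genes) and none on the lower. DBP2, an RNA helicase, had the largest, 1.32 ± 0.42 (adjusted p = 0.138): it read 1403, 1396 and 1441 FPKM in wild type and 1225.1, 1397, 1327 and 1421 in the deletion in glucose. In ethanol DBP2 stood at 53.7, 50.9 and 106 in wild type and 92.9, 226, 128 and 235 in the deletion, so wild-type library 3 lay above deletion library 1. The nucleolar protein gene NSR1 differed by 0.82 ± 0.29 (adjusted p = 0.144). The mean log2 level of the list was 5.97, 5.92 and 6.38 in wild-type ethanol libraries and 6.21, 6.75, 6.44 and 6.78 in deletion ethanol libraries, against 7.83 to 7.88 and 7.77 to 7.87 in glucose. Deletion libraries 2 and 4 were highest, and wild-type library 3 lay above deletion library 1.

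Ribosomal protein genes had a median difference of 0.45, with all 139 above 0. Of them 63 (45.3%, against 6.32% of all genes) had an unadjusted p below 0.05. Their slope, 0.600, was the lowest of the lists with at least 15 genes tested, which ran up to 0.957. RPL3, a single-copy gene of the large subunit, differed by 0.59 ± 0.23 (adjusted p = 0.156), and RPS3 of the small subunit by 0.40 ± 0.20 (adjusted p = 0.209). Many members have near-identical copies, between which the sharing of reads is uncertain. For both ribosome lists the larger part of the gap lay on the ethanol side. There the medians of deletion minus wild type were 0.46 for biogenesis and 0.37 for ribosomal proteins, against -0.02 and -0.08 in glucose. Over all genes these medians were -0.04 in ethanol and 0.08 in glucose.

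Genes of the RNA polymerases I and III lay on both sides of 0. Among 17 RNA polymerase I genes, 12 lay above 0, whereas 68.1% of all genes lay below it. An unadjusted p below 0.05 was reached by 5 on the higher side (29.4%, against 6.32% of all genes) and 1 on the lower (5.88%, against 19.3%). RPA135, the second-largest subunit of this polymerase, stood at 0.84 ± 0.28 (adjusted p = 0.138) and RPA190, the largest, at 0.51 ± 0.20 (adjusted p = 0.152). The RNA polymerase III list of 23 genes had a median of 0.14, with 5 genes (21.7%) at an unadjusted p below 0.05 in each direction. That share was near the background of 19.3% on the lower side and above that of 6.32% on the higher. The 15 genes above 0 of this list were subunits of the polymerase together with PZF1, which is TFIIIA, and SPT15, the TATA-binding protein. Its 8 genes below 0 were the TFIIIC genes TFC6 (-0.39 ± 0.10), TFC3 (-0.33), TFC4 (-0.29), TFC1 (-0.24), TFC8 (-0.19) and TFC7 (-0.12) and the TFIIIB genes BDP1 (-0.27) and BRF1 (-0.25). Subunit genes reached 0.32 for RPC82, 0.37 for RET1 and 0.55 for RPC10, and RPO31, the largest subunit, stood at 0.18 ± 0.15. In wild type RPC82 fell in ethanol, whereas TFC6 and TFC3 rose, by 0.73 and 0.89.

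The regulators of RNA polymerase III had a median of -0.15, near that of all genes, with 24 of 27 below 0 against 68.1% of all genes. An unadjusted p below 0.05 was reached by 5 on the lower side (18.5%), close to the background, and the median was -0.04 under median scaling. MAF1 read 142, 134 and 132 FPKM in wild type and 156, 159, 168 and 145 in the deletion in glucose. In ethanol MAF1 reached 408, 465 and 373 in wild type and 412, 346, 370 and 264 in the deletion. Groups were apart in glucose and overlapped in ethanol, and the difference was -0.47 ± 0.17 (adjusted p = 0.146). TPK2 and TPK3, which encode catalytic subunits of protein kinase A, stood at -0.71 ± 0.19 and 0.11 ± 0.12. Of 69 tRNA processing and modification genes 49 lay above 0. An unadjusted p below 0.05 on the higher side was reached by 22 (31.9%, against 6.32% of all genes). Among them were GCD10 (0.69) of a tRNA adenosine methyltransferase and TRM82 (0.73) of a tRNA guanosine methyltransferase. Of 20 cytosolic tRNA synthetase genes 19 lay above 0, with a median of 0.25 and MES1, the methionyl enzyme, at 0.50 ± 0.17 (adjusted p = 0.143).

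**Figure D5:**
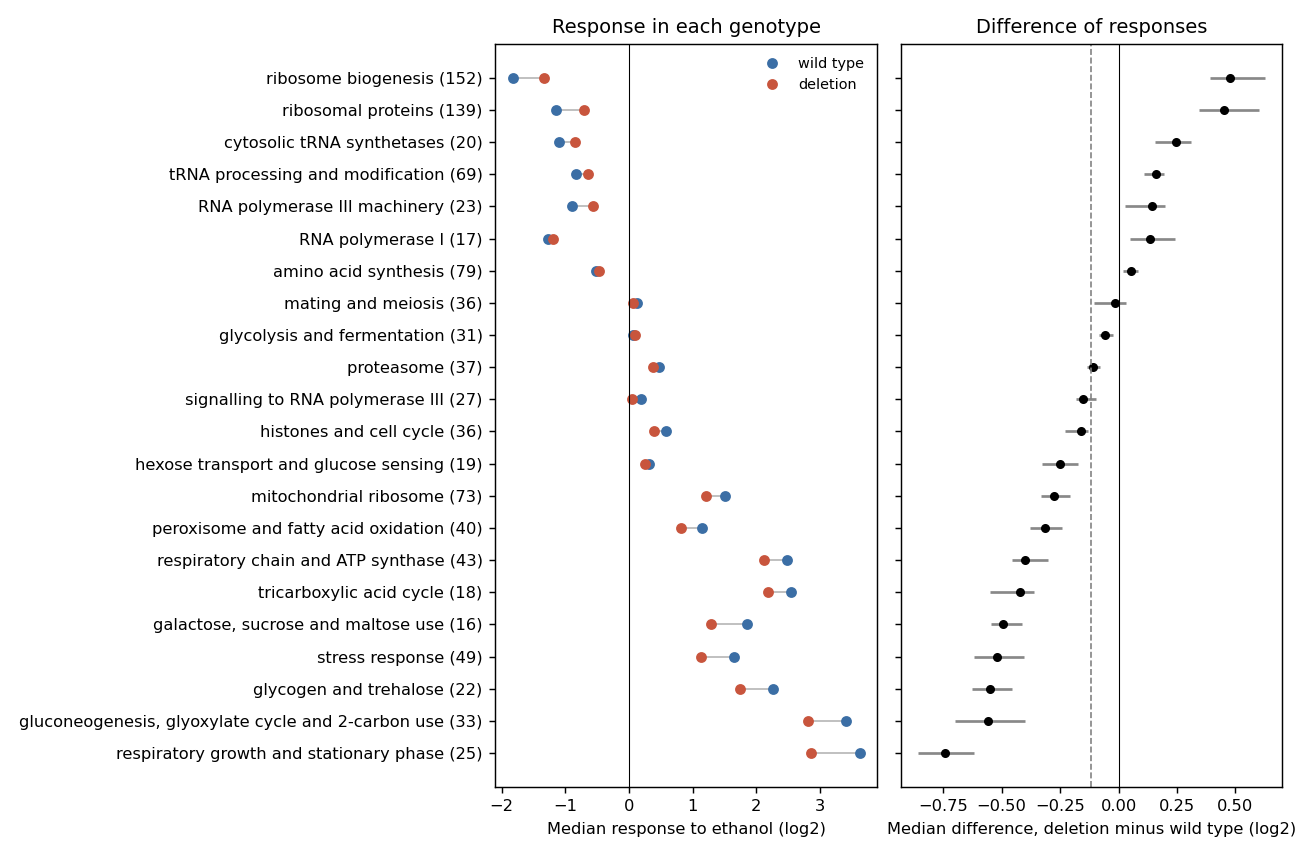
Left, median ethanol response in log2 units of 22 gene lists (genes tested in brackets) in wild type and deletion; right, median difference of responses (points), its range over leaving out each library (lines) and the median of all genes (dashed line). Lists that went down in wild type have medians above 0, up to 0.47 for ribosome biogenesis, and lists that went up have medians below 0, down to -0.74 for respiratory growth and stationary phase.

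Genes of respiration rose in both genotypes, by a smaller estimate in the deletion, and part of the gap lay in glucose. All 43 genes of the respiratory chain and ATP synthase had estimates below 0, against 68.1% of all genes. Their median was -0.40, and 24 (55.8%) had an unadjusted p below 0.05. The medians of deletion minus wild type were -0.21 in ethanol and 0.18 in glucose, against -0.04 and 0.08 over all genes. COX26, a cytochrome c oxidase subunit, stood at -1.52 ± 0.37, CYB2, the lactate dehydrogenase of mitochondria, at -1.03 ± 0.44, and COX4 at -0.24 ± 0.17. CYC1, which encodes cytochrome c, rose by 3.72 in wild type and 3.20 in the deletion, a difference of -0.52 ± 0.19 (adjusted p = 0.147). The HAP element CCAAT, bound by the Hap complex that controls respiration, stood in 34 of the 43 windows (79.1%), against 31.0% of all 5733.

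Of 18 tricarboxylic acid cycle genes 17 lay below 0 and 15 (83.3%) reached an unadjusted p below 0.05 on the lower side, with a median of -0.42. CIT1, citrate synthase, read 72.6, 71.6 and 68.8 FPKM in wild type and 88.3, 92.7, 97.9 and 87.0 in the deletion in glucose. CIT1 in ethanol reached 1137, 1234 and 902 in wild type and 1009, 716, 1015 and 767 in the deletion. All deletion libraries lay above wild type in glucose and the groups overlapped in ethanol, and the difference was -0.68 ± 0.18 (adjusted p = 0.134). SDH1, of succinate dehydrogenase, differed by -0.78 ± 0.23 (adjusted p = 0.134). All 73 mitochondrial ribosome genes lay below 0, against 68.1% of all genes. Their median was -0.27, and 36 (49.3%) had an unadjusted p below 0.05. Under median scaling the median was -0.17, and MRPL3 turned sign, at 0.0106.

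Genes for using ethanol and other carbon followed the same order. The list of gluconeogenesis, the glyoxylate cycle and 2-carbon use had a median of -0.56, with 30 of 33 below 0. An unadjusted p below 0.05 was reached by 14 on the lower side (42.4%) and 1 on the higher (3.03%). PCK1, ICL1 and FBP1 did not reach it, at -0.16 ± 0.28, -0.29 ± 0.27 and -0.73 ± 0.39. ALD4, the mitochondrial aldehyde dehydrogenase, stood at -1.13 ± 0.28, and ADH2, which oxidises ethanol, at -0.91 ± 0.40 (adjusted p = 0.178). JEN1, the lactate and pyruvate carrier, read 2.14, 2.02 and 1.80 FPKM in wild type and 2.65, 2.42, 2.93 and 2.39 in the deletion in glucose. In ethanol it read 694, 842 and 501 against 614, 257, 496 and 265, a difference of -1.07 ± 0.37 (adjusted p = 0.140), with overlapping groups in ethanol. MAE1, the malic enzyme gene, fell in both and stood at 0.53 ± 0.19. Peroxisome and fatty acid oxidation genes had a median of -0.32 with 39 of 40 below 0, among them the acyl-CoA oxidase gene POX1 at -0.98 ± 0.42 (adjusted p = 0.177) and the peroxisomal catalase gene CTA1 at -1.10 ± 0.39.

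Reserve carbohydrate and stress genes lay among the lower lists. All 22 glycogen and trehalose genes were below 0, against 68.1% of all genes. Their median was -0.55, and 16 (72.7%) had an unadjusted p below 0.05. GPH1, glycogen phosphorylase, stood at -0.90 ± 0.29 (adjusted p = 0.138) and the glycogen synthase gene GSY1 at -0.82 ± 0.19. Of 49 stress genes 44 were below 0, with a median of -0.52. An unadjusted p below 0.05 was reached by 25 on the lower side (51.0%) and 2 on the higher (4.08%). SIP18 stood at -1.62 ± 0.40, and the cytosolic catalase gene CTT1 at -0.77 ± 0.26 (adjusted p = 0.138). HSP12, a membrane-associated heat shock gene, spread widely within groups. It read 3514, 3367 and 1111 FPKM in wild-type ethanol libraries and 984, 880, 1585 and 705 in deletion ethanol libraries, and its difference was -0.57 ± 0.67. The chaperone gene YDJ1, at 0.27 ± 0.09, and the peroxidase gene GPX2, at 0.49 ± 0.17, fell in both genotypes and were the members on the higher side. Genes of respiratory growth and stationary phase had the lowest median, -0.74, with 23 of 25 below 0; RGI2 stood at -1.67 ± 0.54 (adjusted p = 0.138), FMP16 at -1.92 ± 0.43, and SNZ1 and SNO1 of vitamin B6 synthesis at -1.25 and -1.42.

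The 19 tested hexose transport and glucose sensing genes had a slope of 0.957, with 18 of 19 below 0, a median of -0.25 and 5 at an unadjusted p below 0.05 (26.3%). The slope weights members by the size of their response, and HXT1, HXT3, HXT7 and HXT6 had the largest in wild type (-6.40, -5.76, 6.29 and 5.47). HXT6 and HXT7 are near-identical, so that the sharing of reads between them is uncertain. Members with smaller responses had lower ratios in part: HXT5 rose by 3.02 in wild type and 1.76 in the deletion, and the glucose sensor gene SNF3 by 1.96 and 1.44. HXT1, a low-affinity glucose transporter, read 132, 135 and 153 FPKM in wild type and 150, 183, 160 and 173 in the deletion in glucose, and 0.525, 0.695 and 0.790 against 0.501, 0.891, 0.550 and 0.884 in ethanol. HXT1 fell in both genotypes, with a difference of -0.22 ± 0.16 (95% interval -0.56 to 0.12, adjusted p = 0.376); its ethanol level was under 1 FPKM, where the pseudocount limits the change. HXT3, another low-affinity transporter, read 1008, 998 and 1096 FPKM in wild type and 1142, 1367, 1356 and 1468 in the deletion in glucose, and 16.3, 18.2 and 20.0 against 23.6, 19.4, 19.3 and 16.7 in ethanol. It fell by 5.76 in wild type and fell by 6.01 in the deletion, a difference of -0.25 ± 0.15 (95% interval -0.58 to 0.08, adjusted p = 0.305). SUC2, invertase, of the list of galactose, sucrose and maltose use, rose by 4.75 in wild type and 4.63 in the deletion, a difference of -0.12 ± 0.13 (95% interval -0.41 to 0.17, adjusted p = 0.588). Within the hexose list the differences ran from -1.26 ± 0.37 for HXT5 to 0.25 ± 0.22 for MIG2, a repressor gene, with HXT4 at -0.01 and HXT6 at -0.02.

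Chosen after the values were seen, a further contrast set the deletion response against 0.804 times the wild-type response, to find genes that departed from the common reduction. Limma called 7 of 6267 genes (0.112%), 5 lower and 2 higher, with the slope taken as known although it came from the same libraries. HXT1 (-1.48 ± 0.14, adjusted p = 0.00043) and HXT3 (-1.38 ± 0.14, adjusted p = 0.00043) fell further than that. So did ARI1, an aldehyde reductase (-0.76 ± 0.09, adjusted p = 0.00104), and LEU1, of leucine synthesis (-0.50 ± 0.07, adjusted p = 0.0063). SUC2 (0.81 ± 0.12, adjusted p = 0.0141) and FIT3, a cell wall protein of iron uptake (0.89 ± 0.14, adjusted p = 0.0292), rose further than that. The ratio of the deletion to the wild-type response lay between 0.98 and 1.15 for these 6 genes. HXT1 read 0.501 to 0.891 FPKM in ethanol over both genotypes, where the pseudocount limits its response in each. FPT1 was the seventh (adjusted p = 0.0397). HXT1, HXT3 and ARI1 were called in all 14 settings that left out a library and in 7 of 7 others, LEU1 in 13 and 4, SUC2 in 10 and 5, FIT3 in 7 and 4, and FPT1 in 3 and 3.

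ARI1 (YGL157W) read 118, 110 and 120 FPKM in wild type and 146, 136, 135 and 139 in the deletion in glucose, and 23.5, 23.8 and 27.0 against 25.5, 23.4, 23.0 and 21.9 in ethanol. The deletion lay above wild type in glucose and the groups overlapped in ethanol, so ARI1 fell by 2.18 in wild type and fell by 2.52 in the deletion.

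The 31 genes of glycolysis and fermentation had a median of -0.06, and 18 lay below 0. Median scaling gave a median of 0.05 and quantile normalization one of -0.12. Of these genes 8 reached an unadjusted p below 0.05 on the lower side (25.8%) and 1, the enolase gene ENO2 (0.23 ± 0.10), on the higher. TDH3, a glyceraldehyde-3-phosphate dehydrogenase gene, had a 95% interval of -0.28 to 0.27, and PDC1, pyruvate decarboxylase, differed by 0.02 ± 0.12 with an interval of -0.24 to 0.29. Among the 8 were GLK1, glucokinase, at -0.83 ± 0.18 and HXK1, a hexokinase gene, at -0.71 ± 0.27, while TDH1, which also rose in ethanol, stood at -0.15 ± 0.27. The 79 amino acid synthesis genes had a median of 0.05, with 6 lower (7.59%) and 7 higher (8.86%) at an unadjusted p below 0.05. GCN4, their activator, stood at 0.15 ± 0.13 (95% interval -0.12 to 0.42). Proteasome genes had a median of -0.11 and mating and meiosis genes one of -0.01.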

How the data were processed

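Messenger RNA was measured in 14 yeast samples as poly(A) libraries made with a stranded kit and read as 65-base single reads, per the labels. The authors deposited FPKM values in 1 table of 6664 genes. STAR 2.7.1a and the sacCer3 build were used, per the submitters' processing notes; what program and annotation gave the FPKM values, and whether strand was used, is not given in the sources used here, so overlapping and antisense genes are uncertain. Low values gave no consistent step in every library, whole reads were not recovered, and read depth, which sets the precision of low genes, is unknown.

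Samples were grouped by title. Replicates are described as biological without any label that ties each to its own culture; the p-values cover no more than the spread among these samples, part of which may be technical. A gene was tested if 3 or more samples reached 1 FPKM (6267 genes, with 397 left out). A model with 1 mean per group was fitted to log2(FPKM + 1) with limma 3.58.1 in R 4.3.3 (empirical Bayes with trend, two-sided, Benjamini-Hochberg over all genes tested, threshold 0.05), and was first tested on simulated data. Changes on this scale understate those of low genes. Errors are SEs unless stated otherwise.

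The members and 24 gene lists were chosen with earlier results of these data known. Genes named are FPT1, up to 10 genes of lowest p in each direction (symbol, mean of at least 10 FPKM), fixed genes of each list, SRL3 and MAG1. List members other than these were picked after their values were seen, and not all of them were the extremes of their lists. ARI1, LEU1 and FIT3 were picked by the added contrast, also after their values were seen. Gene names, positions and windows came from RefSeq R64 by systematic name (5989 matched, 675 did not). Alternatives were pseudocounts of 0.1 and 5, other filters and scalings, a replicate block, array weights, robust estimation, leaving out NKI5620 and leaving out each library. For same-numbered libraries of a genotype, 1 of 7 correlations of their deviations was over 0.1, which cannot decide whether they shared a culture.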

Additional observations from a re-analysis of the deposited data

Results flagged for a closer look

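Of the 117 checks of groups and measures made for a closer look, 7 stood out. In 6 of them 1 library of 4 lay apart from the other 3 by more than Dixon's criterion allows, which chance does in about 1 group in 20. Among deletion glucose libraries, library 2 read 292 FPKM for RPA135, with the others at 261 to 266, and 233 for RPN2, a proteasome subunit gene, with the others at 218 to 220. Library 1 read 318 FPKM for HIS4, of histidine synthesis, with the others at 249 to 254. Among deletion ethanol libraries, library 1 read 279 FPKM for DDR2, with the others at 166 to 178, and 25.0 for JJJ3, with the others at 33.2 to 34.7. Library 2 read 2082 FPKM for SUC2, with the others at 2285 to 2295. The remaining result was the difference of responses on the first principal component, -16.9 (permutation of genotype within medium, p = 0.0278). That permutation is exact only if genotype had no effect in either medium.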

How the results depend on the processing

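Over 24 alternatives the count of called genes was 0, as reported, except for 1 gene (FPT1) at pseudocount 5, with no filter on low values and without both NKI5620 libraries, 1036 genes with array weights (709 lower, 327 higher), and 0 to 844 when a library was left out. Genes at an unadjusted p below 0.05 numbered 830 to 2153 when a library was left out. Against the scaled wild-type response, chosen after seeing the data, 7 genes were called and 494 had an unadjusted p below 0.05, against 0 and 1603 for the plain difference. The difference on the first principal component kept its direction but not its call at pseudocount 0.1 (-16.5, exact permutation p = 0.0857), under median scaling (-15.1, p = 0.0645) and quantile normalization (-13.5, p = 0.0963), and without both NKI5620 libraries (-13.0, p = 0.07). Without 1 library it ran from -20.7 to -13.9. The cause was not tested.

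Small estimates that turned sign were CLN2 (0.0073 under median scaling, 0.0101 under quantile normalization), HIS4 (0.0574, 0.0272 and, with array weights, 0.0195), MRPL3 (0.0106 and 0.0168), TDH3 (0.107 under median scaling), PDC1 (-0.137 under quantile normalization, -0.0062 without both NKI5620 libraries) and MFA1 (-0.0023 with array weights). When 1 library was left out TDH3 ran from -0.0619 to 0.0494, PDC1 from -0.0329 to 0.0827, HIS4 from -0.144 to 0.0336 and MFA1 from -0.0445 to 0.502. None of these was called.

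With the replicate number as a block within genotype, 0 genes were called and 1481 had an unadjusted p below 0.05. The numbers share no more than a label: correlations of same-numbered libraries ran from -0.42 to 0.17, and 3 of 14 libraries correlated best with their own number. Unknown read depth limits genes near 1 FPKM.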

Other observations

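Reading frames without an entry in the annotation were far noisier than the rest. The 534 tested had a median SE of 0.678 for the difference of responses, against 0.133 for annotated genes. Their median difference was -0.23. At an unadjusted p below 0.05, 27 of the 534 were lower and 13 higher, smaller shares than the 19.3% and 6.32% of all genes.

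Histone and cell cycle genes had a median difference of -0.16, with 31 of 36 below 0 and 6 at an unadjusted p below 0.05 on the lower side, close to the share of all genes. The histone H4 genes HHF1 and HHF2 stood at -0.47 ± 0.15 and -0.45 ± 0.14, and CLN2, a G1 cyclin gene, at -0.10 ± 0.12. Genes of galactose, sucrose and maltose use had a median of -0.49, with all 16 below 0, against 68.1% of all genes. Of them 9 (56.25%) had an unadjusted p below 0.05 on the lower side, against 19.3% of all genes. The maltose permease gene MAL31 stood at -0.77 ± 0.17. Of the 5 neighbours of FPT1 on chromosome XI, FOX2, of fatty acid oxidation, stood at -0.57 ± 0.24 (limma adjusted p = 0.170) and PRY2, a secreted sterol-binding protein gene, at 0.09 ± 0.14. The meiotic recombinase gene DMC1, at -0.78 ± 0.26, had the lowest difference among mating and meiosis genes.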
